A study of Homo sapiens with 12 samples.

Results

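Bone morphogenetic proteins (BMPs) are secreted ligands that bind pairs of type I and type II receptor kinases, which phosphorylate the receptor-regulated SMAD proteins. These enter the nucleus with SMAD4 and raise a small set of genes, among them the ID genes, and inhibitors of the pathway itself, among them SMAD6, SMAD7 and BAMBI. In liver the pathway is best known for driving hepatocyte transcription of HAMP, the gene of the iron hormone hepcidin, in answer to BMP2 and BMP6 that come mainly from endothelial cells.

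The 10 genes of this loop described here are the ligand genes BMP2, BMP4 and BMP6, the pseudoreceptor gene BAMBI, the SMAD genes SMAD6, SMAD7 and SMAD9, and ID1, ID2 and ID3. They were chosen by name with earlier results of these data known, so their counts beside the shares of all genes are only descriptive. Each had 1 probe set with a single gene symbol, and all 10 were measured among 18404 genes. All 10 passed the filter on dim probe sets, which required at least 3 arrays above the 40th percentile of their array and kept 13199 genes. BMP6 lay between the 37.7th and 45.9th percentile of its arrays and BMP2 between the 43.5th and 49.6th, so neither is shown to be far above background. The other members lay at or above the 60.5th percentile on every array.

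The samples were HepG2C3A cells, a human hepatic tumour line used as a stand-in for hepatocytes, so every group is 1 line without the other cells of a liver. Cells were cultured for 96 h and detached with trypsin, and their RNA was hybridised to 12 Affymetrix Human Gene 1.0 ST arrays, 3 for each of 4 groups. Microsystem treated and Petri treated cells were exposed to acetaminophen, an analgesic that the liver converts in part to a reactive quinone imine, for 72 h, while microsystem control and Petri control cells received none. What the microsystem consists of, and which acetaminophen dose was applied, is left unstated by the labels. Values are log2 intensities, so a difference of 1 is a doubling. A gene is said to have risen or fallen where limma's two-sided test gave a Benjamini-Hochberg adjusted p under 0.05 over all 13199 genes.

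Array medians lay between 5.556 and 5.629, and arrays of a group correlated with r between 0.991 and 0.995. The third principal component, with 6.77% of the variance, parted both microsystem arrays numbered 3 from the rest, with a score of -13.9 for the treated and -17.2 for the control array. Where a member's call changes without these arrays, the value without them is given. The same holds where a pathway gene that passed, and is printed with its difference, loses its call. Of 9 listed hepatocyte markers 8 were measured, and all 8 passed the filter. FGB was much dimmer (6.20 to 7.35) than the others, which lay at or above 10.79 on every array. The mean of the 8 lay between 11.39 and 11.54 in microsystem treated and between 11.33 and 11.60 in microsystem control cells. In Petri treated cells it lay between 11.33 and 11.55, and in Petri control cells between 11.39 and 11.68. None of 5 endothelial markers passed the filter. Of 5 fibroblast and stellate markers, COL1A1 (5.96 to 6.49), PDGFRB (5.61 to 6.22) and COL3A1 (4.96 to 5.52) passed, and LUM and DCN stayed at or under 2.43 and 2.84. Of 5 leukocyte and macrophage markers, LYZ (12.07 to 12.60), CD68 (8.06 to 9.56) and CD14 (5.17 to 6.06) passed, and CD163 and PTPRC, the gene of CD45, stayed at or under 3.61 and 2.74. The mean of these 5 markers lay between 6.35 and 6.43 in microsystem treated and between 6.33 and 6.38 in microsystem control cells. In Petri treated cells it lay between 6.57 and 6.73, and in Petri control cells between 6.60 and 6.69. Its range was thus lower in the microsystem, as were several of the 10 genes. The markers did not move alike: CD68 and CD14 averaged lower in the microsystem in treated and control cells, LYZ averaged higher, and PTPRC and CD163 stayed dim in every group. Since no label describes the replicates as separate cultures, the p-values cover only the spread among these arrays, part of which could be technical, and precision is limited by having 3 arrays a group.

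Sequences upstream of annotated start sites were searched for short motifs that SMAD proteins are known to bind. RefSeq windows (GRCh38.p14, 250 bases before a start) were found for 9 of the 10 members, with 13 windows in all. The motif GGCGCC stood in 16.4% of all 35116 windows, CAGACA in 13.6% and the palindrome GTCTAGAC, added after the first look, in 0.182%, each counted on both strands. BAMBI held GGCGCC 3 times without overlap, starting 209, 196 and 181 bases before the start. The most upstream of 3 BMP4 windows held it once, 232 bases before the start, and another BMP4 window held CAGACA, 47 bases before its start. SMAD6 held the palindrome 12 bases before its start. The windows of ID1, ID2, ID3, SMAD7, SMAD9 and BMP6 held none of these letters, and a match is a description of the sequence, not a shown binding site. Of the genes with a match, BMP4 alone was lower in untreated microsystem cells. A link of the matches to the expression differences was not tested. Printed 5′ to 3′ with the motifs in capitals are 1 window of each of the 3 genes with a match, leaving out the BMP4 window with CAGACA, and the most upstream of 3 windows of SMAD7, the member with the largest treatment difference in the microsystem.
BAMBI (chr10:28677271-28677520, plus strand): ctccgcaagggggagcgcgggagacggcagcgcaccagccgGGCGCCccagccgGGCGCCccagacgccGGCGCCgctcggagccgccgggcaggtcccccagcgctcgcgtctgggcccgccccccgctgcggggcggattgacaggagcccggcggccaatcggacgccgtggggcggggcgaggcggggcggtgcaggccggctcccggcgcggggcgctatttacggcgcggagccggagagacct
BMP4 (chr14:53955051-53955300, minus strand): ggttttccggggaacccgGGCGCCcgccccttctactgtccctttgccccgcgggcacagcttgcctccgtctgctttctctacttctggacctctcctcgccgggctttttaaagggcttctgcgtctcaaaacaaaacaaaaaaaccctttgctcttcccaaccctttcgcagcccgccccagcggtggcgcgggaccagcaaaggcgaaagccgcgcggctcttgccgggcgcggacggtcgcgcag
SMAD6 (chr15:66701986-66702235, plus strand): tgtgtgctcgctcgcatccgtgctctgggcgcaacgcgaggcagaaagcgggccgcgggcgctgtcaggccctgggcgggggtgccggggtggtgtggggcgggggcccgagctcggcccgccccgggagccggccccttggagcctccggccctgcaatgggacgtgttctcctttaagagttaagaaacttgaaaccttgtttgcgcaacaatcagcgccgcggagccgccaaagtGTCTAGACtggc
SMAD7 (chr18:48950966-48951215, minus strand): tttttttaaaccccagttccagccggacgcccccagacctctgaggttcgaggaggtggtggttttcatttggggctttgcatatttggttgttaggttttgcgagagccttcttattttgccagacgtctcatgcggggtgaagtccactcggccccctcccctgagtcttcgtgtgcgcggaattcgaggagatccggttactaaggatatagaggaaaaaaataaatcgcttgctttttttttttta

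Untreated cells differed between the cultures in 6 of the 10 genes, all lower in the microsystem: SMAD9, SMAD7, BMP4, ID3, ID2 and ID1. None rose, and BMP2, BMP6, BAMBI and SMAD6 did not pass. For comparison, 18.3% of all genes tested fell in this comparison and 26.5% rose, and the median difference was -0.57 over the 10 genes and 0.01 over all genes. In these 6 genes the 3 microsystem control arrays all lay below the 3 Petri control arrays, as they did in 22.9% of all genes. CD68, a lysosomal gene listed among the macrophage markers, averaged 8.16 in microsystem control and 9.21 in Petri control cells, and CD14 averaged 5.36 and 5.80, while LYZ averaged 12.51 and 12.17. Their part in the culture differences was not tested. Bulk RNA cannot tell fewer expressing cells from less RNA per cell.

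**Figure D1:**
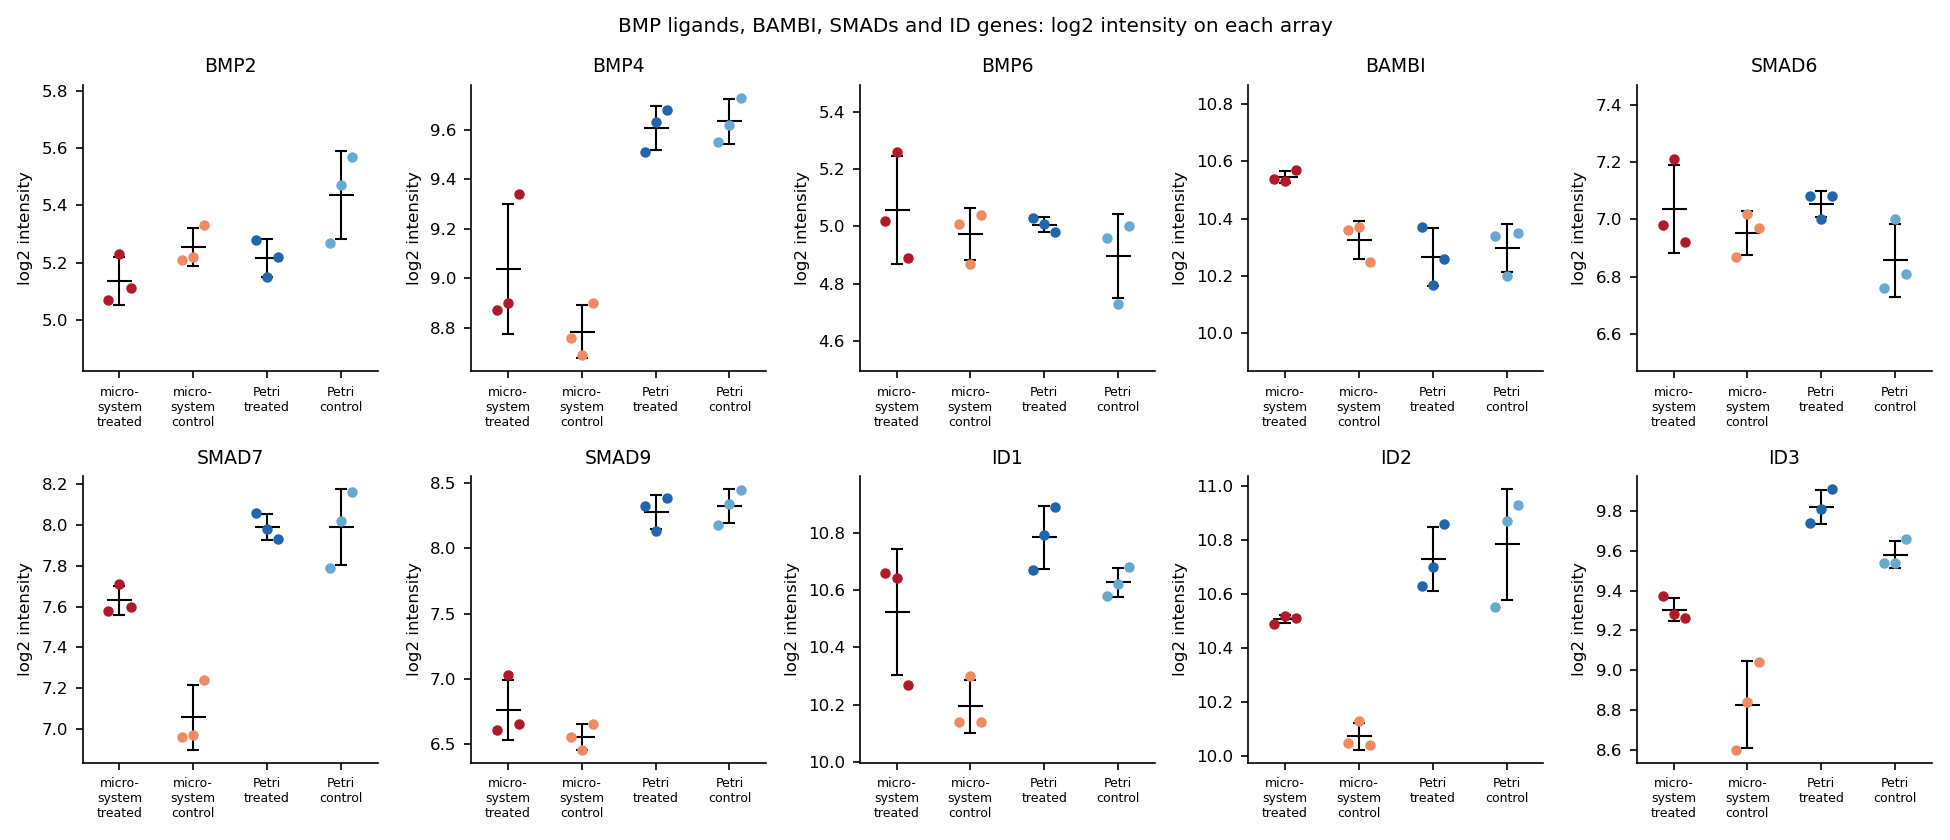
Log2 intensity (vertical axes) of each gene on each array, with 1 panel per gene and the 4 groups along the horizontal axis; points are arrays in the order of their replicate numbers, and bars give the mean and SD of 3 arrays. SMAD9, SMAD7, BMP4, ID2 and ID3 lie lower on all 6 microsystem arrays than on any Petri array, while SMAD6, BMP2 and BMP6 overlap between cultures.

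SMAD9, which encodes a receptor-regulated SMAD activated by BMP receptors, had the widest difference of the 10. Its log2 values were 6.61, 7.03 and 6.66 in microsystem treated, 6.56, 6.46 and 6.66 in microsystem control, 8.32, 8.13 and 8.38 in Petri treated and 8.18, 8.34 and 8.44 in Petri control cells. All 6 microsystem arrays lay more than a full log2 unit below every Petri array, and the treated and control arrays of a culture overlapped. SMAD9 was lower in microsystem control than in Petri control cells by -1.76 ± 0.12 (SE, adjusted p = 2.48e-07), or 0.295 times the Petri level, and this was the 42nd most negative of 13199 differences. In treated cells the culture difference was -1.51 ± 0.12 (adjusted p = 8.49e-07).

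The inhibitory SMADs did not move alike. SMAD7, which blocks receptor-regulated SMADs at the receptor and recruits ubiquitin ligases, had values of 7.58, 7.71 and 7.60 in microsystem treated, 6.96, 6.97 and 7.24 in microsystem control, 8.06, 7.98 and 7.93 in Petri treated and 7.79, 8.02 and 8.16 in Petri control cells. The microsystem treated arrays lay between the microsystem controls and both Petri groups, without overlap with any of them. SMAD7 fell to 0.525 times the Petri level in untreated microsystem cells (-0.93 ± 0.10, adjusted p = 1.34e-05). With acetaminophen it rose in the microsystem by 0.57 ± 0.10 (adjusted p = 0.00592), a 1.486-fold increase, so that the culture difference in treated cells was -0.36 ± 0.10 (adjusted p = 0.0141). SMAD6, which acts mainly on the BMP branch, averaged 7.04 ± 0.15 in microsystem treated, 6.95 ± 0.07 in microsystem control, 7.05 ± 0.04 in Petri treated and 6.86 ± 0.12 in Petri control cells (SD, n = 3). It passed in none of the comparisons. Its treated arrays did not overlap the controls in Petri dishes, at a difference of 0.20 ± 0.09 (adjusted p = 0.192), where the treated arrays lay above the controls without overlap in 21% of all genes.

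The ID genes encode helix-loop-helix proteins without a DNA-binding region, which hold E proteins such as those of TCF3 and TCF12 away from DNA. ID3 had values of 9.37, 9.28 and 9.26 in microsystem treated, 8.60, 8.84 and 9.04 in microsystem control, 9.74, 9.81 and 9.91 in Petri treated and 9.54, 9.54 and 9.66 in Petri control cells. These 4 groups did not overlap at any step of their order, from Petri treated as the highest to microsystem control as the lowest. ID3 was lower in the microsystem in untreated cells (-0.75 ± 0.10, adjusted p = 6.32e-05) and in treated cells (-0.51 ± 0.10, adjusted p = 0.00127), and it rose with acetaminophen in the microsystem by 0.47 ± 0.10 (adjusted p = 0.0132). With only the 6 microsystem arrays in the fit that last call was lost (adjusted p = 0.0673). In Petri dishes its difference with treatment was 0.24 ± 0.10 (adjusted p = 0.156).

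ID2 had values of 10.49, 10.52 and 10.51 in microsystem treated, 10.05, 10.13 and 10.04 in microsystem control, 10.63, 10.70 and 10.86 in Petri treated and 10.55, 10.87 and 10.93 in Petri control cells. The first Petri control array stood closer to the microsystem treated arrays than to its own group. ID2 was lower in untreated microsystem cells by -0.71 ± 0.10 (adjusted p = 7.89e-05) and rose there with acetaminophen by 0.43 ± 0.10 (adjusted p = 0.0177). The rise had the size 0.42 without both microsystem arrays numbered 3, but an adjusted p of 0.0848, and without microsystem treated replicate 2 the adjusted p was 0.0636. Between the cultures in treated cells the difference was -0.22 ± 0.10 (adjusted p = 0.0949).

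ID1, a classical BMP target gene, had values of 10.66, 10.64 and 10.27 in microsystem treated, 10.14, 10.30 and 10.14 in microsystem control, 10.67, 10.79 and 10.89 in Petri treated and 10.58, 10.62 and 10.68 in Petri control cells. The third microsystem treated array lay at the level of the microsystem controls, and the other two at that of the Petri controls. ID1 was lower in untreated microsystem cells by -0.43 ± 0.10 (adjusted p = 0.00451). Its treatment difference in the microsystem, 0.33 ± 0.10, did not pass (adjusted p = 0.0668). Without both microsystem arrays numbered 3 the difference was 0.43 and passed (adjusted p = 0.0328), and without microsystem treated replicate 3 alone it was 0.45 (adjusted p = 0.0148).

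Among these ligand genes BMP4 alone passed in a comparison. It had values of 8.87, 8.90 and 9.34 in microsystem treated, 8.76, 8.69 and 8.90 in microsystem control, 9.51, 9.63 and 9.68 in Petri treated and 9.55, 9.62 and 9.73 in Petri control cells. Every microsystem array lay below every Petri array, with the third microsystem treated array the nearest. The culture difference was -0.85 ± 0.12 in untreated cells (adjusted p = 6.75e-05), which is 0.555 times the Petri level, and -0.58 ± 0.12 in treated cells (adjusted p = 0.00146). BMP2 averaged 5.13 ± 0.08 in microsystem treated, 5.25 ± 0.06 in microsystem control, 5.21 ± 0.07 in Petri treated and 5.44 ± 0.15 in Petri control cells (SD, n = 3), with overlap between all neighbours in that order of levels. BMP6 averaged 5.06 ± 0.19, 4.98 ± 0.09, 5.01 ± 0.03 and 4.90 ± 0.14 in the same 4 groups. Neither passed in any comparison of the main fit, and both lay near background, so a change in them is not excluded. With array weights BMP2 passed for treatment in Petri dishes (-0.27, adjusted p = 0.0111) and for culture in untreated cells (-0.22, adjusted p = 0.0364). The latter also passed without Petri control replicate 1 (-0.27, adjusted p = 0.0279).

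BAMBI encodes a transmembrane protein that resembles a type I receptor but lacks the kinase domain. Its values were 10.54, 10.53 and 10.57 in microsystem treated, 10.36, 10.37 and 10.25 in microsystem control, 10.37, 10.17 and 10.26 in Petri treated and 10.34, 10.20 and 10.35 in Petri control cells. Only the microsystem treated arrays stood apart, above all 9 others. BAMBI was the single member that was higher in the microsystem in treated cells (0.28 ± 0.08, adjusted p = 0.0107), and this call was lost without Petri treated replicate 2 (adjusted p = 0.0549). Its treatment difference in the microsystem was 0.22 ± 0.08 (adjusted p = 0.0912). Untreated cells of the cultures differed by 0.03 ± 0.08 in BAMBI, with a 95% interval from -0.14 to 0.20.

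The second question was what acetaminophen changed within a culture. In the microsystem SMAD7, ID3 and ID2 rose, 0 members fell and 7 did not pass, against 6.39% of all genes that rose and 2.67% that fell. The median difference was 0.24 over the 10 genes and -0.01 over all genes. Of the 10 members, 4 had treated arrays that did not overlap the controls, SMAD7, ID2, ID3 and BAMBI, all with the treated arrays higher, as in 15.2% of all genes. In Petri dishes 0 members rose and 0 fell, where 8.38% and 1.98% of all genes did by limma. At an unadjusted p under 0.05, which 26.3% of all genes met, 2 of the 10 members differed, BMP2 (-0.22 ± 0.09, adjusted p = 0.128) and ID3. The median difference there was -0.01 over the 10 genes and 0.01 over all genes, and the 95% interval of the SMAD7 difference ran from -0.23 to 0.22.

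**Figure D2:**
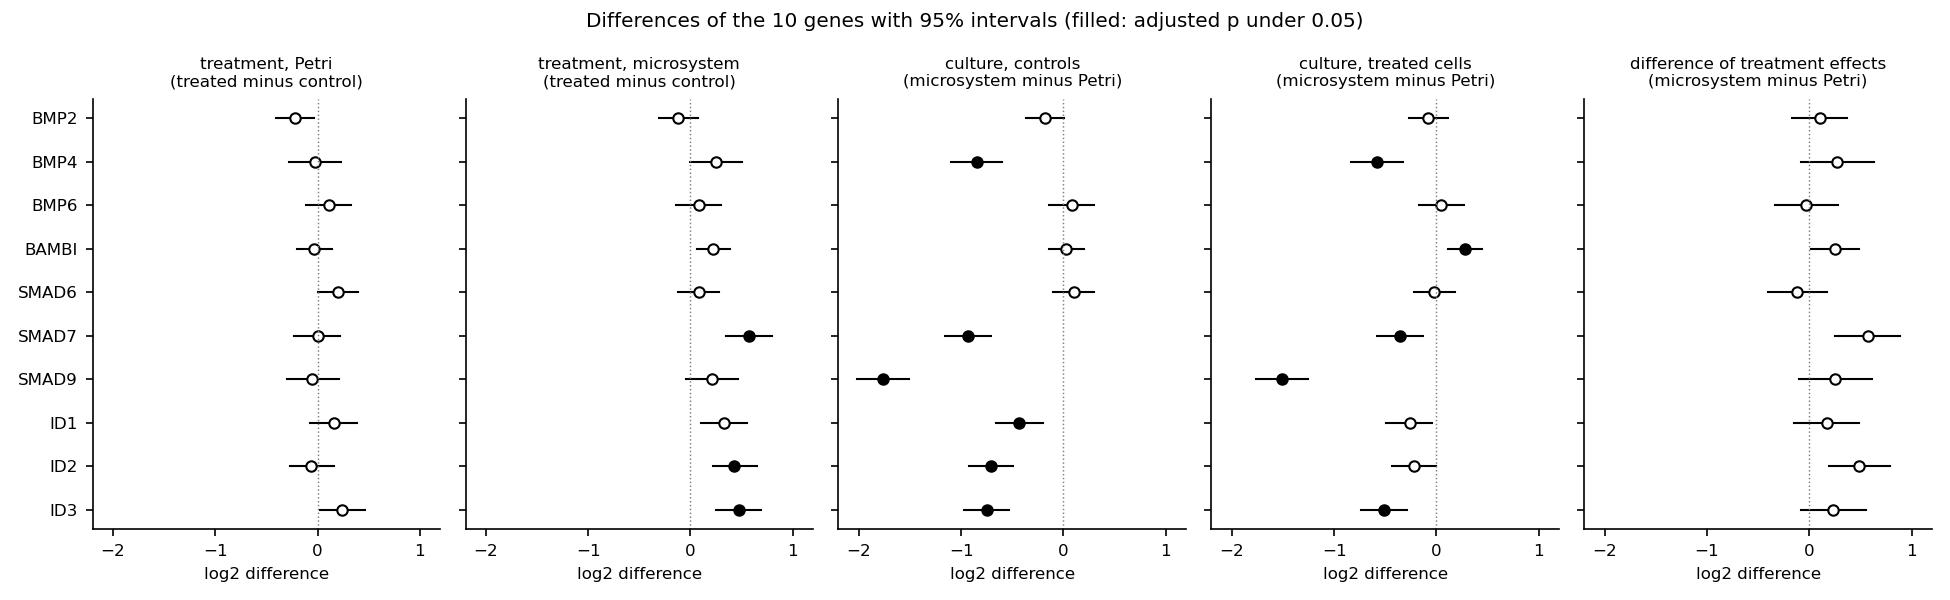
Log2 differences of the 10 genes (horizontal axes) in 5 comparisons, with 95% intervals from the moderated fit; filled points have an adjusted p under 0.05 over 13199 genes. Filled points number 6 on the negative side for culture in controls, 3 on the positive side for treatment in the microsystem, and none for treatment in Petri dishes or for the difference of the treatment effects.

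The test of the difference between the treatment effects themselves, microsystem minus Petri, passed for 0 of the 10 members by limma, where 0.00758% of all genes rose and 0.0227% fell. At an unadjusted p under 0.05, which 7.35% of all genes met, it held for 3 of the 10 members. By limma these were SMAD7 (0.57 ± 0.15, adjusted p = 0.315), ID2 (0.49 ± 0.14, adjusted p = 0.393) and BAMBI (0.25 ± 0.11, adjusted p = 0.658). The rises seen in the microsystem are therefore not shown to differ from those in Petri dishes. With array weights, 1 member passed, SMAD7 (0.65, adjusted p = 0.0422). That was the only 1 of 24 alternatives in which SMAD7 passed this test. The culture comparison in controls and the treatment comparison in the microsystem share the 3 microsystem control arrays, so low values there enter both.

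In treated cells 4 members were lower in the microsystem, SMAD9, BMP4, ID3 and SMAD7, and BAMBI was higher, while 18.9% of all genes fell and 22.6% rose. The median difference was -0.24 over the 10 genes and 0 over all genes. ID1 and ID2 also lay lower without overlap in treated cells, at -0.26 ± 0.10 and -0.22 ± 0.10, but did not pass (adjusted p = 0.0603 and 0.0949). Without overlap between the cultures, 6 members lay lower in the microsystem and 1 higher, as did 24.8% and 28.1% of all genes.

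Across the 12 arrays, members that were lower in the microsystem ran together, as a description of levels that share the same 4 groups. Pearson's r was 0.94 between SMAD7 and ID2, 0.94 between SMAD7 and ID3, 0.92 between BMP4 and SMAD9 and 0.89 between ID1 and ID3. After each group's mean was removed, the deviations gave r of 0.43, 0.50, 0.01 and 0.32 for the same 4 pairs, each lower than over the arrays as they stand. Since these pairs were among the highest over the arrays, a drop was likely beforehand. Not every pair dropped: r went from 0.38 to 0.90 for BMP2 and SMAD7 and from 0.53 to 0.83 for BMP2 and SMAD9, with BMP2 near background. For BMP4 and ID1 it went from 0.67 to -0.60. BAMBI and SMAD9 ran apart over the 12 arrays (r of -0.55) and not in their deviations (r of -0.01). The 5 genes whose values followed ID1 most closely over the 12 arrays were RAB13 (r of 0.955), DVL2 (0.948), CNNM3 (0.939), FAM168B (0.939) and RRAGC (0.937). For BAMBI they were SEMA7A (0.899), TIMP4 (0.885), DOCK4 (0.884), POLR2A (0.882) and DDX5 (0.881).

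A list of 88 other genes of the BMP and TGF-beta pathways was described beside the members. It was also chosen with earlier results of these data known, and 64 of its genes were tested. In untreated cells 26 of them were lower and 7 higher in the microsystem, with 31 that did not pass, a median difference of -0.22 and a background of 18.3% and 26.5% of all genes. In treated cells 18 were lower and 12 higher, beside 18.9% and 22.6% of all genes, and without microsystem treated replicate 2 the count that was higher was 7. With acetaminophen 15 of the 64 rose and 3 fell in the microsystem, beside 6.39% and 2.67% of all genes, and 2 rose and 3 fell in Petri dishes, beside 8.38% and 1.98%. In the main fit the difference of the treatment effects passed for 0 of the 64, beside 0.00758% of all genes that rose and 0.0227% that fell. These counts therefore do not show that the response differed between the cultures. Same-numbered Petri arrays deviated together, and with replicate number as a block within each culture 5 rose in Petri dishes in place of 2. Without microsystem treated replicate 2, 9 rose and 0 fell in the microsystem. The count that fell there was also 0 without microsystem control replicate 2 or without both arrays numbered 3, and 1 without microsystem treated replicate 3. Without both arrays numbered 3 the rises of LTBP2, NEO1, SMURF2, SKIL and SMAD5 did not pass (adjusted p between 0.0527 and 0.172). In Petri dishes the count that rose was 1 without Petri treated replicate 2 or 3 or any 1 of the Petri controls, and the count that fell was 1 without Petri treated replicate 2.

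**Figure D3:**
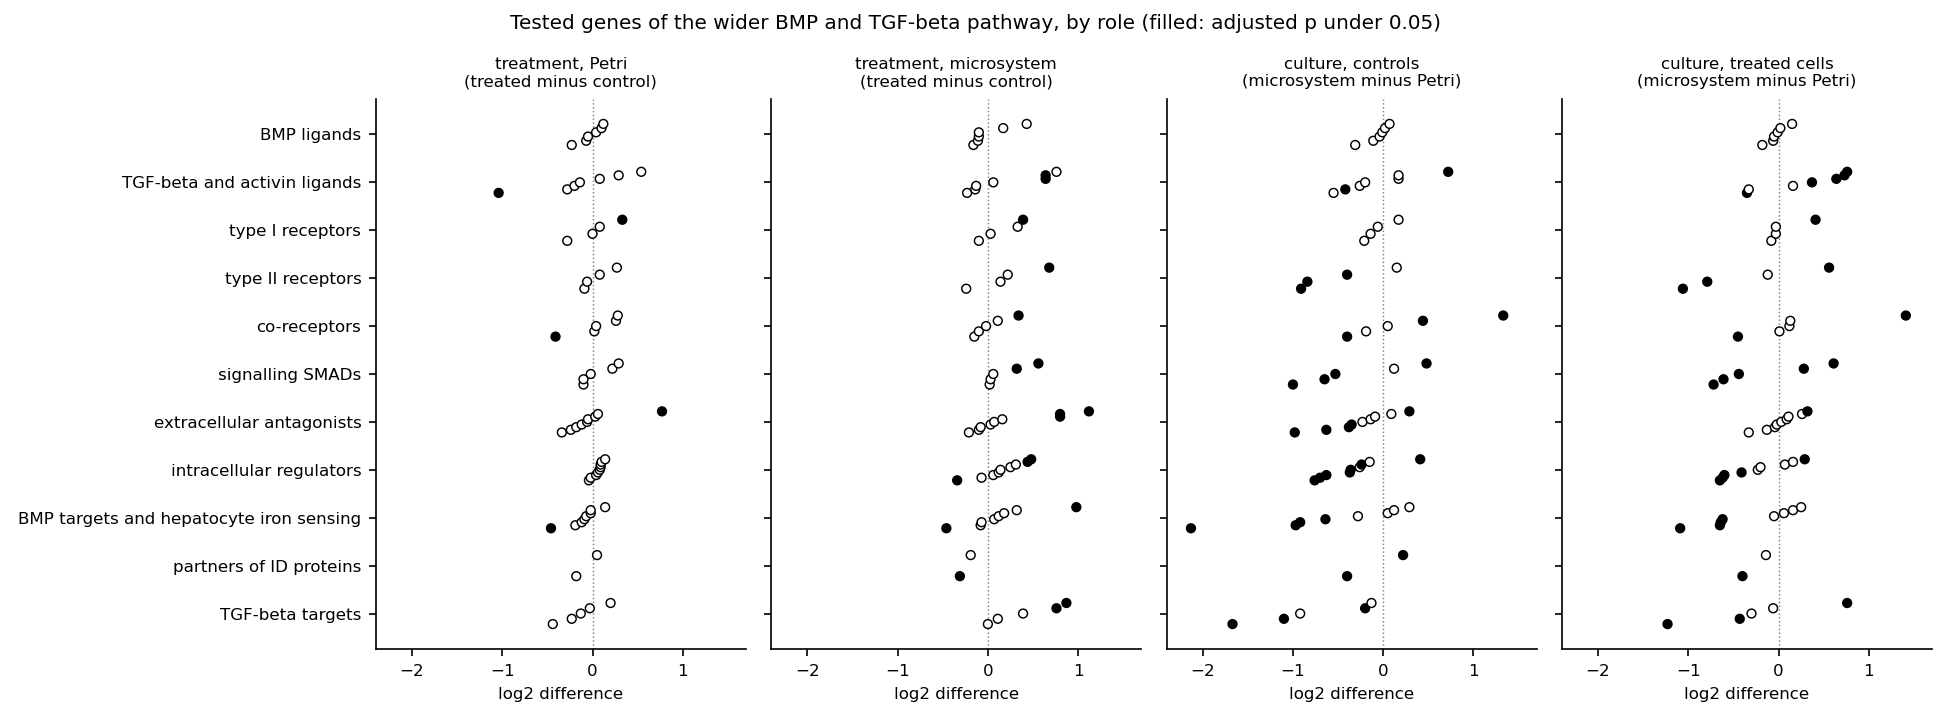
Log2 differences (horizontal axes) of the 64 tested pathway genes outside the 10 members, in rows by role; each point is a gene, filled where the adjusted p was under 0.05, and the 4 panels are the treatment and culture comparisons. Filled points lie mostly on the negative side for culture in controls (26 of 33) and mostly on the positive side for treatment in the microsystem (15 of 18).

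HAMP, the hepatocyte target gene of BMP signalling, had log2 values of 6.67, 6.62 and 6.53 in microsystem treated, 5.69, 5.58 and 5.62 in microsystem control, 7.63, 7.81 and 7.63 in Petri treated and 7.25, 8.15 and 7.87 in Petri control cells. As for SMAD7, the microsystem treated arrays lay between the microsystem controls and the Petri arrays without overlap, and the first Petri control array was the lowest of the 6 Petri arrays. HAMP was lower in untreated microsystem cells by -2.13 ± 0.17 (adjusted p = 7.83e-07) and rose there with acetaminophen by 0.98 ± 0.17 (adjusted p = 0.00376), against -0.07 ± 0.17 in Petri dishes (adjusted p = 0.834). The difference of these effects was 1.04 ± 0.23 (adjusted p = 0.199). The HAMP values of the microsystem controls lay close to the medians of their arrays (5.588 to 5.629). They are not shown to be far above background, so the sizes of differences from them are uncertain. Of 8 tested genes of BMP targets and hepatocyte iron sensing, 4 were lower in untreated microsystem cells, beside 18.3% of all genes. Among them were TMPRSS6, a protease that cleaves the co-receptor hemojuvelin (-0.92 ± 0.08), and HEY1, a Notch and BMP target (-0.97 ± 0.19). ID4, the remaining ID gene, passed in no comparison, with -0.28 ± 0.12 between untreated cultures (adjusted p = 0.0769).

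**Figure D4:**
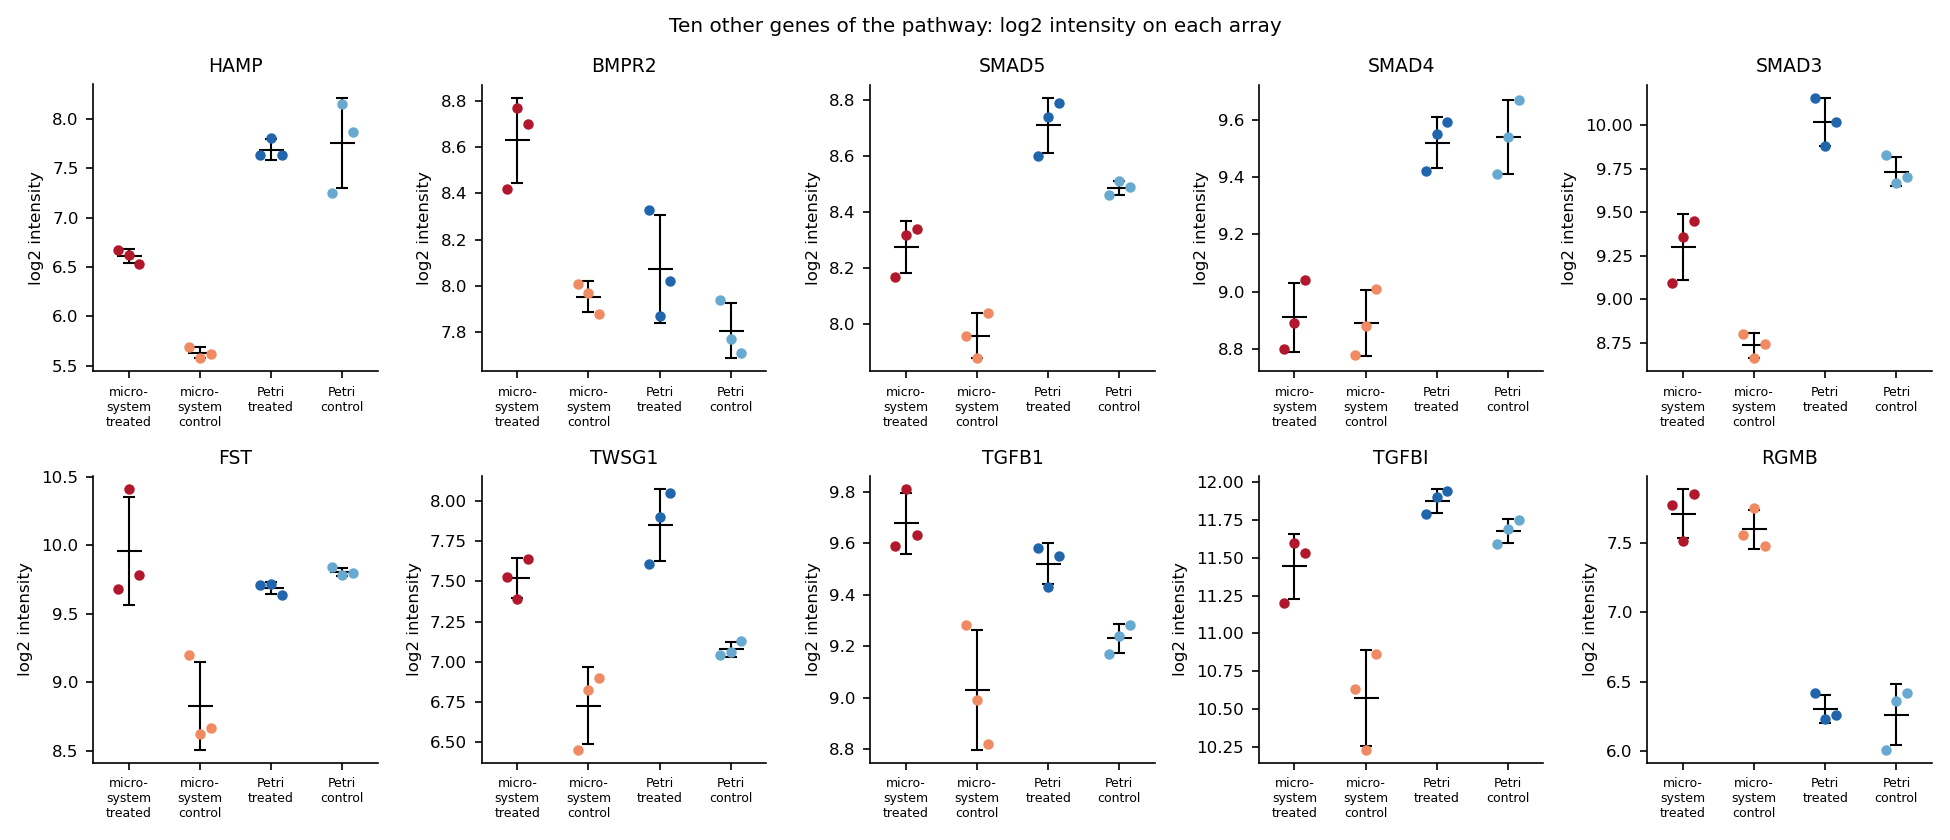
Log2 intensity (vertical axes) on each array for 10 pathway genes outside the members, picked for display after their values were seen; points are arrays, and bars give the mean and SD of 3 arrays per group. HAMP, SMAD3, SMAD4, SMAD5 and TGFBI lie lower on the microsystem control arrays than on any Petri array, and RGMB lies higher in the microsystem.

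Among the signalling SMADs, 3 of 5 were lower in untreated microsystem cells and 1 was higher, beside 18.3% and 26.5% of all genes. The 3 lower ones were SMAD3 (-1 ± 0.10), the shared partner SMAD4 (-0.65 ± 0.10) and SMAD5 (-0.53 ± 0.08). SMAD1, which carries BMP signals beside SMAD5 and SMAD9, differed by 0.12 ± 0.10 (adjusted p = 0.373). With acetaminophen in the microsystem SMAD3 rose by 0.56 ± 0.10 and SMAD5 by 0.32 ± 0.08, while SMAD4 differed by 0.02 ± 0.10 (adjusted p = 0.909). SMAD5 kept this call in 19 of 25 alternatives and lost it without both arrays numbered 3 (adjusted p = 0.0803), and without microsystem treated replicate 2 or 3 or microsystem control replicate 2 (adjusted p up to 0.108).

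Of 4 tested type II receptor genes, ACVR2B (-0.91 ± 0.09), TGFBR2 (-0.84 ± 0.09) and ACVR2A (-0.40 ± 0.07) were lower in untreated microsystem cells, beside 18.3% of all genes. BMPR2, the BMP type II receptor gene, differed by 0.15 ± 0.12 there (adjusted p = 0.352) and rose with acetaminophen in the microsystem by 0.68 ± 0.12 (adjusted p = 0.00507). TGFBR1, a type I receptor gene, rose with acetaminophen in both cultures, by 0.39 ± 0.09 in the microsystem and 0.33 ± 0.09 in Petri dishes. The Petri call was lost without any 1 of the 6 Petri arrays (adjusted p up to 0.0892), and the microsystem call without treated replicate 2 (adjusted p = 0.0546) or 3 (adjusted p = 0.0526). The co-receptor gene RGMB was higher in the microsystem, by 1.33 ± 0.12 in untreated and 1.41 ± 0.12 in treated cells. The 6 tested BMP ligand genes outside the members passed in no comparison. Of these, BMP3, BMP8A, GDF2 and GDF6 had group means between 4.76 and 5.46, near background like BMP2 and BMP6, so a change in them is not excluded.

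The extracellular antagonist gene FST, whose product follistatin binds activins and some BMPs, fell in untreated microsystem cells by 0.98 (SE 0.17, adjusted p = 0.000478) and rose there with acetaminophen by 1.12 ± 0.17 (adjusted p = 0.00218). TWSG1, which encodes a BMP-binding protein, rose with acetaminophen by 0.77 ± 0.13 in Petri dishes and 0.80 ± 0.13 in the microsystem. Of 9 tested intracellular regulators, 6 were lower in untreated microsystem cells, beside 18.3% of all genes. Among them were the ubiquitin ligase genes SMURF2 (-0.76 ± 0.12), NEDD4L (-0.70 ± 0.14) and SMURF1 (-0.36 ± 0.10). The SMURF1 call was lost without microsystem control replicate 3 (adjusted p = 0.0551). With acetaminophen in the microsystem, SMURF2 and SKIL, a corepressor gene, rose by 0.44 ± 0.12 and 0.48 ± 0.12, and TGIF2 fell by 0.34 (SE 0.08). These calls were not stable: SMURF2 passed in 15 of 25 alternatives, SKIL in 19 and TGIF2 in 20. Without both arrays numbered 3 none of them passed (adjusted p of 0.172 for SMURF2, 0.0902 for SKIL and 0.0603 for TGIF2), and all 3 were also lost without microsystem treated replicate 2 and without microsystem control replicate 2 (adjusted p between 0.0643 and 0.128). Of the TGF-beta targets, CCN2 (-1.67 ± 0.22) and TGFBI (-1.10 ± 0.14) were lower in untreated microsystem cells. With acetaminophen 2 of the 5 tested targets rose in the microsystem, beside 6.39% of all genes, among them TGFBI by 0.87 ± 0.14. CCN2 differed there by 0 ± 0.22 (adjusted p = 0.999). TGFB1 itself rose in the microsystem by 0.64 ± 0.11 (adjusted p = 0.00349).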

How the data were processed

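The authors deposited log2 intensities for each probe set. Per the submitters' processing notes, these came from Expression Console with robust multi-array averaging (program versions and genome build: not given in the sources used). No further normalization was applied. Of 32321 probe sets, 19158 had 1 symbol in the platform annotation, 1388 had several and 11775 had none here. For each of 18404 genes the probe set with the highest mean was taken. In limma 3.58.1 (R 4.3.3), group means were fitted over 12 arrays and 13199 genes, with empirical Bayes moderation, 8 residual and 5.35 prior degrees of freedom, and 5 contrasts. SE and 95% intervals are those of that fit. It was tested on simulated data with known changes. Figures were drawn in Python 3.11.15 with matplotlib 3.10.9.

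All members and, per comparison and role, up to 3 pathway genes past the threshold with the largest difference were eligible for naming, with HAMP, ID4, SMAD1, SMAD4, SMAD5, BMPR2 and SMURF1 whatever their values. Named likenesses are the 5 highest correlations. The members, lists and tests were chosen with earlier results of these data known.

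Same-numbered arrays were checked for pairing by correlating deviations from group means across genes. The 3 Petri pairs gave r of 0.48, 0.19 and 0.31, so the numbers were taken to pair those arrays, while the microsystem pairs gave 0.11, 0.07 and 0.60. The main fit held no replicate term, and the numbers entered only the replicate blocks among the alternatives. Alternatives were a replicate block, one within each culture, only the arrays compared, quantile normalization, equal medians, a 60th percentile filter or none, averaging or testing separately the probe sets of a gene, array weights, an intensity trend, a 1.5-fold minimum, and leaving out arrays.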

Additional observations from a re-analysis of the deposited data

How the results depend on the processing

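Across 25 alternatives for each treatment and culture comparison, and 24 for the difference of effects, the 50 member differences gave 1230 values, of which 0 called ones changed sign, 12 lost a call and 20 gained one. The count of members that fell in untreated microsystem cells was 6 and stayed between 5 and 7. With array weights, 1 member rose and 1 fell in Petri dishes and 1 rose for the difference of effects, in place of 0. Treatment in the microsystem raised 5 members after quantile normalization, 2 to 4 when single arrays were left out, and 0 at a minimum of 1.5-fold, in place of 3. In treated cells, 0 members rose and 1 fell with culture at that minimum, in place of 1 and 4, and leaving out single arrays gave 0 to 1 that rose and 4 to 5 that fell. The causes were not tested, except that the 1.5-fold minimum removes smaller differences by construction. With the replicate block within each culture, ID1 passed for treatment in the microsystem (adjusted p = 0.0267), and ID1 and ID2 passed for culture in treated cells (adjusted p = 0.0266 and 0.0361). The additive replicate block changed no member's call (SMAD7 in the microsystem 0.57, adjusted p = 0.00469), nor did either block in Petri dishes. Of the pathway list, alternatives gave 1 to 8 genes that rose and 1 to 6 that fell in Petri dishes, 9 to 18 and 0 to 3 in the microsystem, 2 to 8 that rose and 15 to 30 that fell with culture in controls, 6 to 12 and 12 to 21 in treated cells, and 0 to 2 that rose for the difference of effects. Counts over all genes also varied. In Petri dishes 363 to 2424 rose and 29 to 1178 fell, and in the microsystem 260 to 1383 and 50 to 726. With culture in controls 1378 to 3956 rose and 858 to 2779 fell, and in treated cells 1117 to 3427 and 841 to 3110. For the difference of effects 0 to 21 rose and 1 to 33 fell. Neither rescaling moved the median of all genes by more than 0.054. BMP2 and BMP6 lay near background, which limits what can be seen of them, and both were dropped by the 60th percentile filter.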
